A study of Drosophila melanogaster with 20 samples.

Results

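The comparison described here is loss of the RNA-binding protein RBP9 alone: heads of Δrbp9 flies against heads of wild-type flies, 5 libraries each, 10 of the 20 libraries in the series. It covers every gene whose normalized count averaged more than 10 across those libraries, 10515 of the 17558 genes in the count table. The last genes inside this limit were CG7794 and CG18179 (both 10.01), and the first outside it was Nse1 (9.98). Δrbp9 flies were rbp9P2690/Df(2L)ED206, a P-element allele over a deficiency, which is a chromosome that lacks a stretch of neighbouring genes. Wild-type flies were of the w1118 stock, whose mutation in w removes the eye pigment. The other 10 libraries came from ΔfneΔrbp9 flies, which carried the same Rbp9 alleles and also lacked the paralog FNE, and from Δfne flies, which lacked FNE alone (Df(1)fneΔ/fneKOZ2 females, and males with either X chromosome allele). All flies were 1-day-old untreated adults of both sexes, with heads pooled before RNA extraction. Whether the mutant chromosomes share the background of the w1118 stock is not given in the sources used here, so loss of RBP9 and a difference in background cannot be told apart within Δrbp9 against wild type.

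RBP9 belongs to the ELAV/Hu family, RNA-binding proteins with 3 RNA recognition motifs that are found in neurons from flies to mammals. Its fly relatives are ELAV, the marker of neurons, and FNE. These proteins bind uridine-rich sequence, mostly in introns and 3′ untranslated regions (3′UTRs), and act on splicing, poly(A) site choice, RNA stability and translation. RBP9 is also known from the ovary, where it acts on the germline gene bam. A head library pools brain, eyes, antennae, fat body, muscle, tracheae and cuticle, so fewer cells of a type and less RNA per cell cannot be told apart.

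The Δrbp9 libraries held 13771301 to 18921712 counted reads and the wild-type libraries 15923472 to 21064462. Values are given as CPM, read counts normalized for library size with the TMM factors of edgeR. A gene was called when edgeR's quasi-likelihood test (edgeR QL) gave a Benjamini-Hochberg adjusted p below 0.01 and the absolute log2 fold change was above 0.5, and all folds are Δrbp9 over wild type unless another pair is named. Neuron markers were level: elav had 163 to 175 CPM in Δrbp9 and 165 to 178 CPM in wild type. Glial markers were lower: repo, moody and Eaat1 summed to 846 to 923 CPM in Δrbp9 and 937 to 1095.5 CPM in wild type. None of the 3 was called, with moody the nearest at −0.48 on the log2 scale (edgeR QL adjusted p = 3.48e-05). Of 18 genes in a wider glial list none was called by edgeR QL or DESeq2. At an unadjusted p below 0.05, 5 of the 18 were higher and 7 lower (66.7%), against 41.9% of all tested genes. Several sources of variation stood apart from the genotypes. The yolk protein gene Yp1, which is expressed in female fat body, had 3778 to 5089 CPM in Δrbp9 but 808 to 7340 CPM in wild type, highest in wild-type replicates 2 and 3 and lowest in replicate 5. Summed digestive protease RNA reached 146 CPM at most in Δrbp9 and 12.3 CPM in wild type, with alphaTry at 59.3 and 37.5 CPM in Δrbp9 replicates 1 and 3 and at most 0.289 CPM in the other Δrbp9 libraries. Flight muscle RNA varied as well: 3 of its markers summed to 21.7 to 130.4 CPM in Δrbp9 and 19.0 to 634 CPM in wild type, highest in wild-type replicate 4. The part of these differences in the results was not tested, and counts without these libraries are given below.

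Rbp9 itself fell in every mutant library. Rbp9 (FBgn0010263, chromosome arm 2L, 2954762 to 2968434, plus strand, release 6 of the fly genome) had 20.5, 19.2, 20.2, 17.1 and 17.6 CPM in Δrbp9, against 504, 496, 503, 476 and 434 CPM in wild type. The groups did not overlap, a difference of −4.67 ± 0.0697 on the log2 scale (SE here and below, edgeR QL adjusted p = 1.17e-11). The same loss was seen where FNE was also absent, with 18.3 ± 1.41 CPM in ΔfneΔrbp9 and 598 ± 27.7 CPM in Δfne (SD, n = 5 each).

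Relatives and partners of RBP9 that were tested did not pass the cutoffs. The paralog fne had 203, 202, 215, 211 and 225 CPM in Δrbp9, against 211, 191, 205, 185 and 179 CPM in wild type, and the ranges overlapped (log2 fold change 0.13, edgeR QL adjusted p = 0.0881). elav differed by −0.01 on the log2 scale (edgeR QL adjusted p = 0.808), a value whose sign turned to 0.02 when libraries were scaled by total count alone. stau, which encodes the double-stranded RNA-binding protein Staufen of neuronal granules, differed by 0.20 ± 0.0733 (edgeR QL adjusted p = 0.0561). emc, a reported RNA target of the ELAV family in the head, differed by −0.08, and bam had at most 0.0532 CPM in any of the 10 libraries and was not tested. The long noncoding RNA mimi had 741, 751, 736, 706 and 729.6 CPM in Δrbp9, against 1016, 985, 933, 911 and 903 CPM in wild type. Every Δrbp9 library was below every wild-type library, but the log2 fold change of −0.37 ± 0.0394 stayed inside the cutoff of 0.5 (edgeR QL adjusted p = 5.89e-05). Of 25 tested ELAV family and neuronal granule RNA-binding protein genes, none was called in either direction by edgeR QL or by DESeq2, while 7 were higher and 5 lower at an unadjusted p below 0.05. Of 13 genes reported as RNA targets of the family, none was called by either tool, and 3 were higher and 5 lower at that unadjusted p. That p was passed by 48% of the 25 and 61.5% of the 13 genes, against 41.9% of all tested genes outside the interval. Of all those genes 6.62% were called, so lists this small would hold few calls at that share.

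Genes around Rbp9 on 2L were held apart, since a deficiency leaves the genes it removes with 1 chromosomal copy. Its breakpoints are not in the labels. The interval from Ifrd1 to FASN2 (2868627 to 3056143, 188 kb) was set with the levels of these genes known, so its counts are a description. Besides Rbp9, 30 of its genes were tested, and 26 were lower, 2 higher and 2 not called, with a median log2 fold change of −0.78, a ratio of 0.583. CG3558 had 66.8, 65.7, 67.0, 66.5 and 65.1 CPM in Δrbp9, against 130.2, 128, 131, 128 and 134 CPM in wild type. Its level was nearly the same in all libraries of a group, and its log2 fold change was −0.97 (edgeR QL adjusted p = 4.31e-09). Chd1, a chromatin remodeller, averaged 92.9 ± 2.85 CPM in Δrbp9 and 158 ± 3.77 CPM in wild type (SD, n = 5 each). At the interval's ends, Ifrd1 differed by −0.64 and the fatty acid synthase gene FASN2 by −1.0, the second with an edgeR QL adjusted p of 0.00971 that passed the threshold in only 2 of the 10 fits with 1 library left out. CG17224 and CG17264 were the exceptions and were higher, by 0.69 and 2.41 on the log2 scale. Both were named after their values were seen. Within 200 kb on either side of the interval, 2 of 33 tested genes were lower and 1 was higher, with a median of 0.02. In ΔfneΔrbp9 against Δfne, 27 of the 30 interval genes were lower, with a median log2 fold change of −0.99. This is the pattern drawn in the plot by distance from Rbp9.

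**Figure D1:**
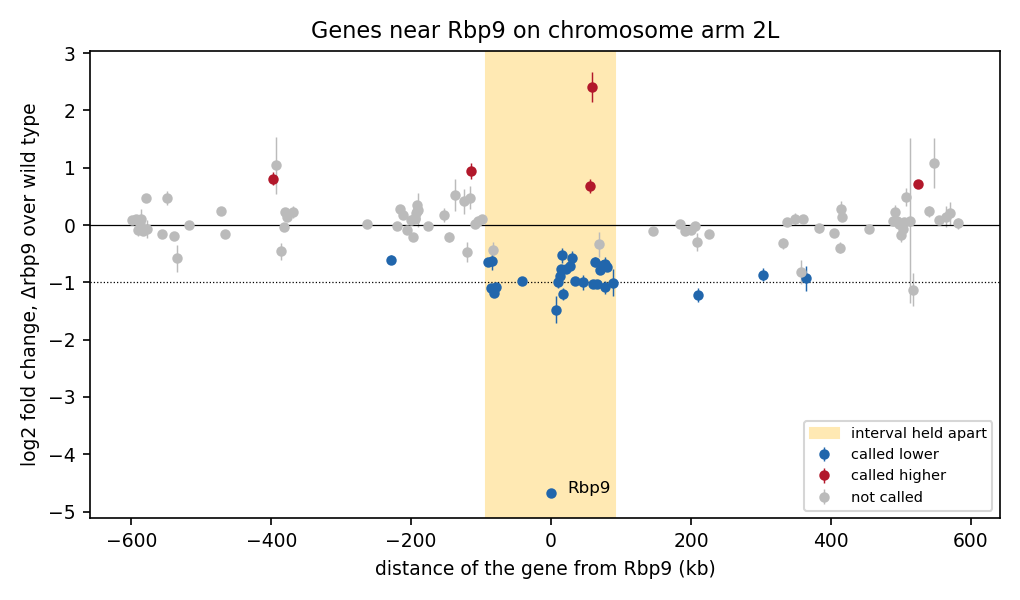
Log2 fold change of Δrbp9 over wild type (vertical axis, bars are ± SE) for tested genes within 600 kb of Rbp9, by distance from Rbp9 in kb (horizontal axis). The shaded interval holds Rbp9 at −4.67 and 26 other genes called lower, most of them near the dotted line at −1, while genes outside it lie about 0.

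Over all tested genes, 723 of 10515 (6.88%) were called, 316 higher (3.01%) and 407 lower (3.87%). Outside the interval 694 of 10484 genes (6.62%) were called, with 314 higher (3.0%) and 380 lower (3.62%) in Δrbp9. Most changes were small: the median log2 fold change was 0.81 for higher and −0.90 for lower calls, 121 higher and 161 lower genes changed more than 2-fold, and 39 and 32 more than 4-fold. The libraries of the groups did not overlap for 303 of the higher and 359 of the lower genes, against 2232 (21.3%) of all tested genes outside the interval. Leaving out each library in turn gave 572 to 727 calls outside the interval, and 472 of the 694 genes were called in all 10 of these fits, 205 of them higher and 267 lower. Without Δrbp9 replicates 1 and 3, the libraries with digestive protease RNA, 459 genes were called outside the interval. Without wild-type replicates 2 and 3, those with the most yolk protein RNA, the count was 855, and without wild-type replicates 4 and 5 it was 699. These pairs of libraries were chosen after seeing the data. Among the genes named below, the first omission ended the calls of dyw, ppk22, lncRNA:CR44756, Lst, AstA-R2, Pu, st, BomS1, Hsp70Bc, Jhe, sad, sug, tj, Lsp1beta, Tat, Hpd, hgo, Nopp140, nop5 and Dhpr. The second ended those of Hsp70Bc, Kr-h1, Mal-A2, Tat and hgo, and the third those of nAChRbeta3, BomS2, Hsp67Bc, Hsp70Bc, sad, sug, Mal-A2, tj, Mhc, Nop56, Nopp140 and Dhpr. Fits without 2 libraries also have less power, so a lost call need not mean a smaller change. In the first omission the log2 fold change was −2.78 for dyw (−2.74 with all libraries) and −0.88 for Hpd (−0.85). For Lst it was smaller, −1.59 (−1.83 with all libraries). The call of tj was also lost in 9 of the 10 fits with 1 library left out.

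**Figure D2:**
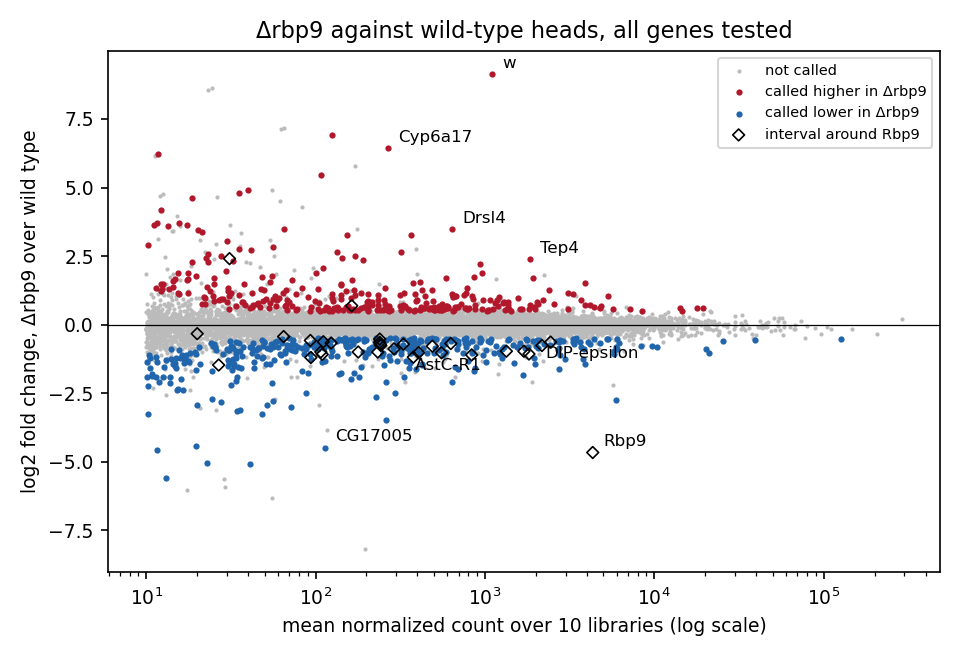
Mean normalized count over the 10 libraries (horizontal axis, log scale) against the log2 fold change of Δrbp9 over wild type (vertical axis) for all 10515 tested genes. Red and blue points are genes called higher (314) and lower (380) outside the interval, grey points were not called, and open diamonds are the 31 genes of the interval, with Rbp9 the lowest of them.

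The calls were spread over the genome. Their share was 5.21% on X, 6.41% on 2L outside the interval, 6.04% on 2R, 8.05% on 3L and 7.40% on 3R. Called genes were short compared with all tested genes. The median 3′UTR length was 177 bp for higher and 197 bp for lower genes against 299 bp for all tested genes, and the median gene span was 1787 and 2065.5 bp against 2709 bp. Called genes also had lower levels, with a median mean normalized count of 201.9 for higher and 166.8 for lower genes against 443.2 for all tested genes. Noncoding RNA genes made up 4.78% of the higher and 13.7% of the lower calls, against 4.15% of all tested genes. These are descriptions of the called genes with no test, and lengths were those of the annotation.

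The largest increases among well-expressed genes were in genes that wild-type heads all but lacked. w, the ABC transporter of eye pigment precursors, had 130.1, 164, 145, 102 and 95.1 CPM in Δrbp9, against 0.247, 0.436, 0, 0.309 and 0.0583 CPM in wild type. Its log2 fold change was 9.12 ± 0.317 (edgeR QL adjusted p = 1.29e-08). The w1118 stock carries a mutation in w, and Δfne flies with intact Rbp9 also had 245 ± 10.2 CPM (SD, n = 5). The part of the w mutation or of any w copy carried by the mutant chromosomes was not tested. sordd2, on the X chromosome, had 13.03 to 16.3 CPM in Δrbp9 and at most 0.309 CPM in wild type, with 49.3 ± 1.65 CPM in Δfne. The cytochrome P450 gene Cyp6a17, known for its part in temperature preference, had 33.8, 31.2, 30.5, 25.3 and 32.2 CPM in Δrbp9, against 0.396, 0.242, 0.316, 0.618 and 0.175 CPM in wild type. It was near absent in wild type alone, with 34.5 ± 1.75 CPM in ΔfneΔrbp9 and 59.8 ± 4.04 CPM in Δfne. Its log2 fold change was 6.45 ± 0.177 (edgeR QL adjusted p = 3.53e-09), and reads that it shares with its neighbour and paralog Cyp6a23 may have been split between them. CG18180 rose by 5.47 ± 0.445 on the log2 scale, with 22.96 CPM in Δrbp9 replicate 1, 7.74 to 11.8 CPM in the other Δrbp9 libraries and at most 0.379 CPM in wild type. Without Δrbp9 replicates 1 and 3 its log2 fold change was 5.17.

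Immune peptides and a hairpin RNA followed. Drsl4, a relative of the antifungal peptide Drosomycin, had 67.1, 75.7, 66.8, 57.8 and 69.4 CPM in Δrbp9, against 6.88, 6.59, 5.12, 4.94 and 6.35 CPM in wild type. Its log2 fold change was 3.49 ± 0.102 (edgeR QL adjusted p = 3.53e-09). BomBc1, of the Toll-induced Bomanin family, had 43.7, 40.5, 34.8, 30.4 and 41.5 CPM in Δrbp9, against 4.06, 5.28, 5.05, 2.53 and 3.03 CPM in wild type. Both genes were far above the wild-type range in every mutant library, and both stood at similar levels in the other mutants: Drsl4 averaged 51.6 ± 2.61 CPM in ΔfneΔrbp9 and 46.5 ± 5.23 CPM in Δfne, and BomBc1 35.8 ± 3.36 and 34.9 ± 7.31 CPM. hpRNA:CR33940, a hairpin RNA of the kind that gives rise to endogenous small interfering RNAs, had 17.4, 14.6, 16.6, 16.6 and 14.4 CPM in Δrbp9, against 1.58, 1.502, 1.58, 1.85 and 1.86 CPM in wild type. It is one of the genes that was also higher in ΔfneΔrbp9 (15.4 ± 2.15 CPM) than in Δfne (9.03 ± 1.33 CPM). CG32523 had 29.7 to 35.1 CPM in Δrbp9 and 1.34 to 10.1 CPM in wild type. CG14715 averaged 16.7 ± 2.13 CPM in Δrbp9 and 2.97 ± 0.447 CPM in wild type, and the unnamed FBgn0028519 13.3 ± 2.96 and 2.10 ± 1.38 CPM. In Δfne CG14715 averaged 21.3 ± 2.19 CPM, and in ΔfneΔrbp9 9.29 ± 0.830 CPM.

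Among the largest decreases were 3 genes of peptide and ion signalling. AstC-R1, a receptor for the peptide Allatostatin C, had 7.97, 8.99, 7.59, 7.30 and 8.94 CPM in Δrbp9, against 30.4, 29.4, 29.6, 31.2 and 32.5 CPM in wild type. The spread within each group was narrow, and the log2 fold change was −1.90 ± 0.0652 (edgeR QL adjusted p = 1.28e-08). It was again wild type that stood alone, since AstC-R1 averaged 11.1 ± 0.696 CPM in ΔfneΔrbp9 and 10.01 ± 1.27 CPM in Δfne. Lst (limostatin), a peptide hormone that restrains insulin release, had 34.6, 35.5, 27.0, 82.4 and 33.9 CPM in Δrbp9, against 117, 131, 129, 171 and 209 CPM in wild type. Replicate 4 was the highest library among the Δrbp9 samples but still below the wild-type range, and without Δrbp9 replicates 1 and 3 the edgeR QL adjusted p was 0.0126, past the threshold. ppk22, a sodium channel subunit of the pickpocket family, had 1.86 to 8.53 CPM in Δrbp9 and 12.8 to 39.97 CPM in wild type, the highest Δrbp9 value again in replicate 4.

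The other large decreases were in genes of varied kinds. CG17005 averaged 0.545 ± 0.246 CPM in Δrbp9 and 12.6 ± 2.62 CPM in wild type, a log2 fold change of −4.49 ± 0.246. It was at 0.549 ± 0.247 CPM in Δfne as well. Osi2, of the Osiris family that is known from insect cuticle formation, had 14.7, 17.5, 14.1, 10.5 and 13.7 CPM in Δrbp9, against 62.2, 63.3, 62.6, 61.1 and 52.2 CPM in wild type. In Δfne Osi2 averaged 29.6 ± 2.93 CPM, and in ΔfneΔrbp9 32.4 ± 8.69 CPM. CG34291 averaged 5.67 ± 1.16 CPM in Δrbp9 and 24.5 ± 8.74 CPM in wild type, with 6.34 ± 1.39 CPM in Δfne and 6.38 ± 1.19 CPM in ΔfneΔrbp9. dyw (daywake), a takeout-family gene next to period, had 66.8 to 125 CPM in Δrbp9, against 583, 351, 185, 587 and 1279 CPM in wild type. The groups did not overlap, but wild-type libraries varied widely and replicate 3 was the lowest of them. Without Δrbp9 replicates 1 and 3 the edgeR QL adjusted p of dyw was 0.0147 and that of ppk22 0.0269, and neither was then called. CG14118 had 1.16 to 4.00 CPM in Δrbp9 and 8.22 to 45.4 CPM in wild type. The noncoding lncRNA:CR44756 averaged 5.14 ± 2.41 CPM in Δrbp9 and 28.7 ± 19.2 CPM in wild type, and its call was lost in 4 of the 10 fits with 1 library left out (those without Δrbp9 replicates 1, 2, 3 and 5). snoRNA:Psi28S-1837a, which guides a base modification of 28S ribosomal RNA, averaged 3.77 ± 0.721 CPM in Δrbp9 and 15.0 ± 3.07 CPM in wild type.

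**Figure D3:**
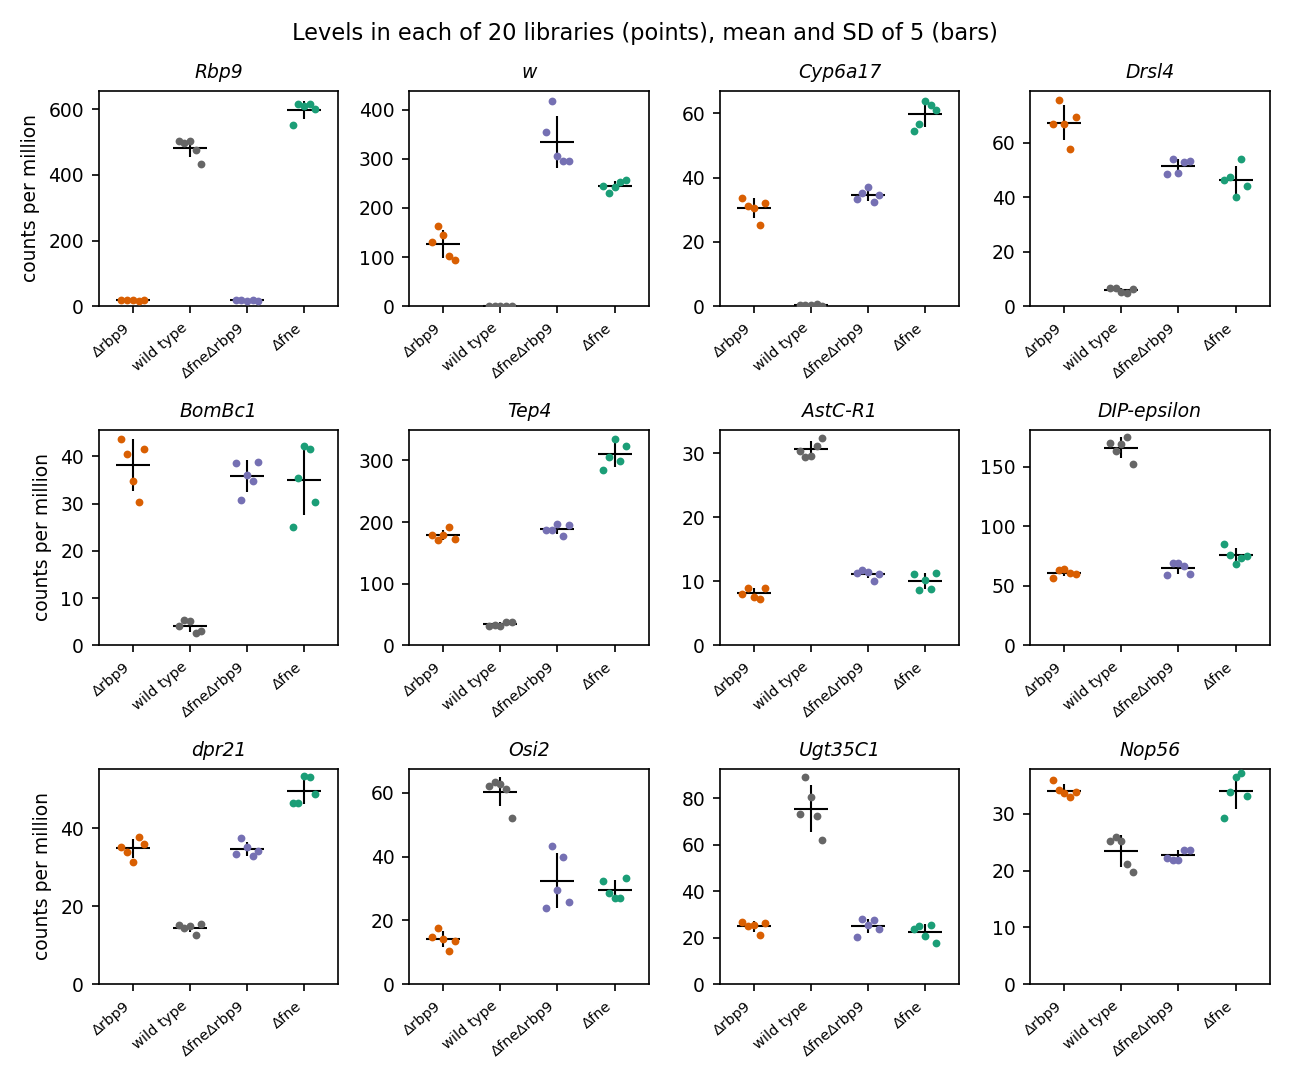
CPM of 12 genes (panels) in each library of Δrbp9, wild type, ΔfneΔrbp9 and Δfne (horizontal axis), with the mean and SD of 5 libraries as bars. Rbp9 follows the Rbp9 genotype, whereas for each of the other genes shown the Δfne mean lies nearer to that of Δrbp9 than to that of wild type.

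Gene families were read next, by the share of their tested members that was called beside the 6.62% of all tested genes outside the interval. The median log2 fold change of all these genes was 0.005. Of the 694 called genes, 199 were in a list and 495 in none. The shares compare Δrbp9 with wild type alone, and some called members had similar levels in Δfne, where Rbp9 is intact. In Δrbp9 against Δfne, DIP-epsilon (−0.31), Hr38 (0.27), Gpdh1 (0.21) and Cyp6d5 (0.06) were not called. Others were called there, such as dpr21 (−0.52), Ugt35B1 (−0.81) and Obp56a (−1.63).

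Core neuronal functions held few or no calls. None of 37 tested synaptic vesicle and active zone genes, 15 learning and memory signalling genes or 17 circadian clock genes was called by edgeR QL or by DESeq2. At an unadjusted p below 0.05, 3 synaptic genes were higher and 8 lower, 3 learning genes were higher and 3 lower, and 4 clock genes were higher and 5 lower, where 41.9% of all tested genes passed that p. The synaptic genes summed to 13565 to 14315 CPM in Δrbp9 and 13675 to 14601 CPM in wild type, overlapping ranges. None of 16 genes of mRNA 3′ end processing was called by either tool, with 6 higher and 1 lower at the unadjusted p.

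Single genes of transmission and peptide signalling changed, at shares of their lists near or below the 6.62% of all tested genes. Of the 41 genes in the neuropeptide list, which did not hold Lst, only CCHa2 was called (2.44%). This nutrient-responsive peptide hormone had 112 ± 9.80 CPM in Δrbp9 and 75.0 ± 8.08 CPM in wild type (log2 fold change 0.59). None of the 41 was lower by edgeR QL or DESeq2, and 16 were at an unadjusted p below 0.05. Leaving out wild-type replicate 4 or 5 brought the neuropeptide calls to 2 and 3, and leaving out Δrbp9 replicates 1 and 3 brought them to 2. Besides AstC-R1, the allatostatin A receptor gene AstA-R2 was the only other of 38 neuropeptide receptor genes called (5.26% in all). AstA-R2 had 4.12 ± 0.223 CPM in Δrbp9 and 2.60 ± 0.285 CPM in wild type. Of 30 genes of amine synthesis, transport and reception, 2 were lower (6.67%): the serotonin receptor gene 5-HT7 (−0.57) and Pu, the GTP cyclohydrolase gene (−0.88). The count was 1 without Δrbp9 replicates 1 and 3 and 4 without wild-type replicates 2 and 3. The list's median was −0.26, with 26 of 30 genes negative and none higher by either tool or at an unadjusted p below 0.05.

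Of 37 genes of acetylcholine, GABA and glutamate transmission, 3 were called (8.11%), near the 6.62% of all tested genes, and these were lower. Eaat2, a transporter of excitatory amino acids, had 288, 287, 282, 284 and 288 CPM in Δrbp9, against 424, 420.4, 402, 409 and 415 CPM in wild type. The separation was far larger than the spread within groups, with a log2 fold change of −0.53 ± 0.0280 (edgeR QL adjusted p = 2.66e-07). The nicotinic receptor subunit gene nAChRbeta3 (−0.50) and the muscle glutamate receptor subunit gene GluRIID (−0.67) were the other called genes among 37. nAChRbeta3 lay at the fold cutoff and was lost without Δrbp9 replicate 4 or wild-type replicate 1, 2 or 4. DESeq2 called the same number lower and 1 gene higher. Of 29 ion channel genes 2 were called (6.90%), also near the share of all tested genes. The potassium channel gene Irk1 fell by 0.54 on the log2 scale and sand, a leak potassium channel gene tied to sleep, rose by 0.86.

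Cell-surface recognition genes held some of the tightest differences. DIP-epsilon, an immunoglobulin-domain receptor that pairs with Dpr proteins at synapses, had 56.5, 63.3, 64.5, 60.4 and 60.2 CPM in Δrbp9, against 170.3, 164, 169, 176 and 152 CPM in wild type. Every mutant library was far below the lowest wild-type library, a log2 fold change of −1.44 ± 0.0494 (edgeR QL adjusted p = 1.28e-08). dpr21 went the other way, with 35.3, 33.9, 31.2, 37.7 and 36.0 CPM in Δrbp9, against 15.3, 14.3, 14.9, 12.7 and 15.4 CPM in wild type (1.26 ± 0.0661, edgeR QL adjusted p = 2.63e-07). In Δfne dpr21 averaged 49.7 CPM, and in ΔfneΔrbp9 34.6 CPM. DIP-theta (−1.03), DIP-lambda (−0.71) and beat-VII (−0.58) were also lower. In all, 1 of 52 Dpr, DIP, Beat and Side genes was higher and 4 were lower (9.62%), and the count was 5 in every fit with 1 library left out. DIP-lambda was named after its values were seen.

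Few phototransduction genes passed the cutoffs although their list leaned lower, and single genes of the pigment pathways changed. Of 38 phototransduction genes 2 were called (5.26%): ninaD, a scavenger receptor for carotenoid uptake, was higher (0.78 ± 0.103) and ninaB, the carotenoid oxygenase that makes retinal, was lower (−0.53 ± 0.0439). The 38 genes summed to 33030 to 34247 CPM in Δrbp9 and 35704 to 39749 CPM in wild type, ranges that did not overlap. At an unadjusted p below 0.05, 6 were higher and 19 lower (65.8%), against 41.9% of all tested genes outside the interval. The rhodopsin gene ninaE had 7683 to 8155 CPM in Δrbp9 and 8016 to 9639 CPM in wild type (−0.17, not called), and the channel gene trp 1777 to 1914 CPM in Δrbp9 and 2466 to 2758 CPM in wild type (−0.50, not called). Of 20 eye pigment genes, w was higher and pr, Pu and st were lower (4 of 20), a count of 2 without Δrbp9 replicates 1 and 3. The pteridine enzyme gene pr had 205, 220.3, 201, 233 and 206 CPM in Δrbp9, against 505, 383, 353, 443 and 587 CPM in wild type, a log2 fold change of −1.09 ± 0.123 (edgeR QL adjusted p = 8.95e-05). st, which encodes the transport partner of the w protein, averaged 32.1 ± 3.22 CPM in Δrbp9 and 48.2 ± 6.57 CPM in wild type. In a list of pteridine and molybdenum cofactor synthesis that was chosen after values were seen, 2 of 10 genes were lower (pr and Pu) and 2 were higher, cin (0.56) and Dhpr (0.51), the second lost in 5 of 10 fits with 1 library left out.

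Of the lists with at least 12 tested members, the Bomanins, short peptides secreted on Toll signalling, had the highest share called. Of 12 tested, 5 were higher (41.7%) and none lower, with a median log2 fold change of 0.51; DESeq2 called 6 higher and none lower, and no Bomanin was lower at an unadjusted p below 0.05. BomS1 averaged 194 ± 20.4 CPM in Δrbp9 and 82.3 ± 28.9 CPM in wild type, BomT3 51.4 ± 4.07 and 25.2 ± 4.62 CPM, and BomS2 394 ± 34.3 and 268 ± 42.1 CPM. The summed Bomanin level was 1875 to 2107 CPM in Δrbp9 and 1261 to 1795 CPM in wild type. It was 1592 to 2253 CPM in Δfne and 2531 to 3004 CPM in ΔfneΔrbp9. In Δrbp9 against Δfne BomT3 was called higher (0.53), while BomS1 (−0.17) and BomS2 (−0.07) were not called. The count of called Bomanins was 3 without wild-type replicate 4 and also without Δrbp9 replicates 1 and 3. Of 17 antimicrobial peptide genes only Drsl4 was called (5.88%), and none was lower by either tool or at an unadjusted p below 0.05. The antimicrobial count was 5 without wild-type replicate 2 and 7 without wild-type replicates 2 and 3. Of 36 immune recognition and signalling genes, only Tep4 was called (2.78%), and none was lower by either tool, with 4 lower at that p. This complement-like thioester protein gene had 179.5, 172, 179, 192 and 173 CPM in Δrbp9, against 30.6, 32.8, 31.6, 37.4 and 38.5 CPM in wild type (2.39 ± 0.0698, edgeR QL adjusted p = 3.53e-09). Tep4 was higher still in Δfne, at 309.7 ± 19.9 CPM, with 188 ± 7.88 CPM in ΔfneΔrbp9.

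Heat shock genes leaned upward but depended on single libraries. Of 23 tested, 20 had positive log2 fold changes, with a median of 0.51. Hsp67Bc (0.51) and Hsp70Bc (3.49) were the 2 called (8.70%, against 6.62% of all tested genes). Hsp70Bc had 6.11, 14.1, 12.1, 1.45 and 0.568 CPM in Δrbp9, against 0.309 to 0.947 CPM in wild type, so the groups overlapped through replicate 5. The Hsp70 copies are nearly identical, and their reads may have been split among them. DESeq2 called 7 of the 23 higher and 18 were higher at an unadjusted p below 0.05, while none was lower by either tool or at that p. They summed to 5163 to 6802 CPM in Δrbp9 and 4353 to 4788 CPM in wild type, ranges that did not overlap. The count of genes called by edgeR QL was 11 without Δrbp9 replicate 5, 0 without Δrbp9 replicate 2, and 1 without Δrbp9 replicate 1 or 3 or any of wild-type replicates 2 to 5. It was 1 without Δrbp9 replicates 1 and 3 or without wild-type replicates 2 and 3, and 0 without wild-type replicates 4 and 5.

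Enzymes of detoxification changed in both directions. Of 71 cytochrome P450 genes, 7 were higher and 7 lower (19.7%). Besides Cyp6a17, Cyp6a13 (11.3 to 13.6 CPM in Δrbp9, 23.5 to 25.7 CPM in wild type), Cyp9b2 (66.2 to 75.6 and 111 to 147 CPM) and Cyp6d5 (201 to 219 and 308 to 383 CPM) were lower with no overlap. Of 33 glutathione transferase genes, 2 were higher and 7 lower (27.3%). GstE1 had 46.3, 52.2, 56.6, 46.4 and 51.04 CPM in Δrbp9, against 25.0, 24.0, 21.2, 26.8 and 27.3 CPM in wild type, whereas its cluster neighbour GstE3 had 33.0, 32.1, 34.1, 33.4 and 32.0 CPM in Δrbp9, against 77.9, 59.9, 49.0, 69.4 and 74.1 CPM in wild type. Genes of 1 cluster thus differed in opposite directions, by 1.03 ± 0.0776 and −1.0 ± 0.107 on the log2 scale. Of 20 UDP-glycosyltransferase genes 3 were lower (15.0%), Ugt35C1 (−1.59), Ugt35B1 (−1.25) and Ugt301D1 (−0.87). None was higher by either tool or at an unadjusted p below 0.05. Ugt35C1 averaged 25.0 ± 2.31 CPM in Δrbp9 and 75.5 ± 10.2 CPM in wild type, and stood at 22.6 ± 3.27 CPM in Δfne.

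Cuticle protein genes and odorant-binding protein genes had shares called several times that of all genes. Of 52 cuticle protein genes, 8 were higher and 10 lower (34.6%), a count that fell to 11 without Δrbp9 replicates 1 and 3. TwdlG, of the Tweedle family, averaged 5.48 ± 0.780 CPM in Δrbp9 and 16.1 ± 1.18 CPM in wild type (−1.55 ± 0.0944), and Cpr72Ec 122 ± 23.5 and 329.7 ± 52.2 CPM (−1.43 ± 0.142). Cpr73D (−1.01) and Cpr76Bc (−0.72) were lower as well, while Ccp84Ag (3.06) and Cpr64Aa (1.33), which were named after their values were seen, were higher. Of 37 odorant-binding protein genes, carriers of small hydrophobic molecules, 5 were higher and 9 lower (37.8%). Obp56a had 3.92, 3.62, 3.48, 3.25 and 3.25 CPM in Δrbp9, against 13.8, 15.7, 14.5, 10.3 and 7.40 CPM in wild type (−1.81 ± 0.190, edgeR QL adjusted p = 5.31e-05). Obp19c averaged 3.72 ± 0.369 CPM in Δrbp9 and 12.7 ± 2.21 CPM in wild type. Obp57a (−0.56) and Obp57b (−0.63) were lower, and among the higher genes, named after their values were seen, were Obp8a (1.63), Obp99b (0.89) and the abundant Obp44a (0.59). Of 68 chemoreceptor genes 3 were higher and 6 lower (13.2%), a count of 5 without Δrbp9 replicate 1 or 4 or wild-type replicate 1 or 4, or without wild-type replicates 2 and 3 or 4 and 5, and of 4 without Δrbp9 replicates 1 and 3. The sugar receptor genes Gr64a (1.60 to 2.89 CPM in Δrbp9, 0.126 to 0.494 CPM in wild type) and Gr64f (1.26 to 1.66 and 0.466 to 0.824 CPM) were higher. Ir100a had 0, 0, 0, 0.0723 and 0.155 CPM in Δrbp9, against 0.775 to 1.83 CPM in wild type, and was at most 0.0787 CPM in Δfne.

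**Figure D4:**
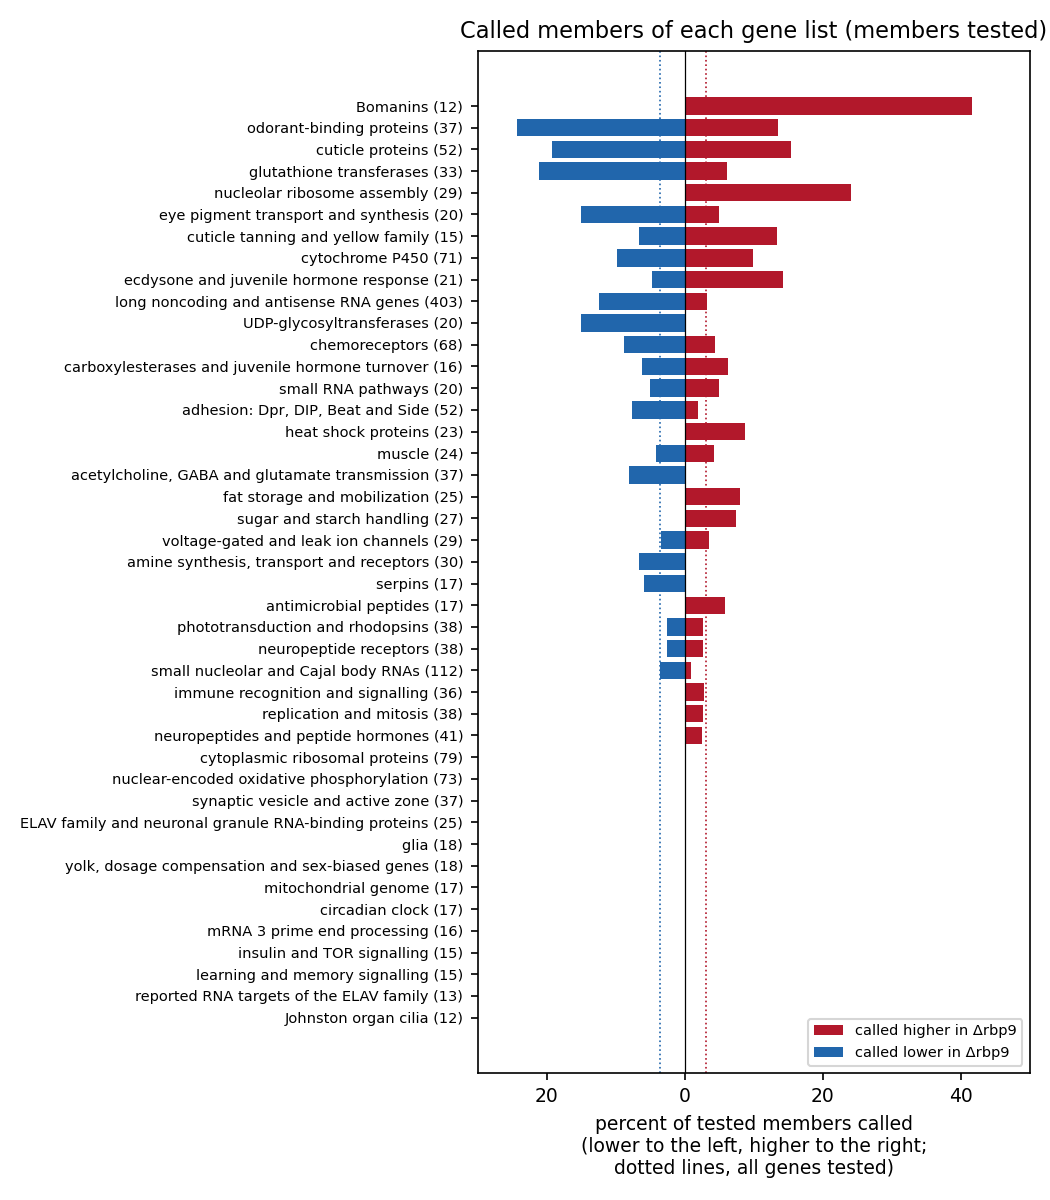
Percent of tested members called lower (blue, to the left) and higher (red, to the right) in Δrbp9 for each list with at least 12 tested members, whose number follows the name. Dotted lines mark the 3.62% and 3.0% of all tested genes outside the interval. Bomanins reach 41.7%, odorant-binding proteins 37.8% and cuticle proteins 34.6% in all, while 13 lists at the bottom have no called member.

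Hormone and nutrient genes changed singly. Hr38, a nuclear receptor gene that is also induced by neuronal activity, had 26.7, 27.8, 30.5, 32.0 and 35.5 CPM in Δrbp9, against 13.2, 13.7, 12.8, 14.6 and 16.1 CPM in wild type (1.12 ± 0.0876, edgeR QL adjusted p = 6.34e-06). Eip78C (0.57) and the ecdysone synthesis gene sad (0.97) were also higher and the juvenile hormone response gene Kr-h1 (−0.52) lower, 4 of 21 genes in all (19.0%). sad and Kr-h1 were each lost with 1 library left out (Δrbp9 replicate 2 for sad and wild-type replicate 2 for Kr-h1). Among esterase genes Jhe, which encodes juvenile hormone esterase, was lower (−1.13) and Est-Q higher (0.70). Gpdh1, a link between glycolysis and lipid synthesis, had 1022, 950.5, 1012, 935 and 993 CPM in Δrbp9, against 652, 682, 674, 640.2 and 605 CPM in wild type, a rise of 0.60 ± 0.0428. Agpat3 (0.59) was the other higher gene among 25 of fat storage and mobilization, and none was lower by either tool, with 3 lower at an unadjusted p below 0.05. The count was 4 without wild-type replicates 2 and 3. None of 15 insulin and TOR signalling genes was called by edgeR QL, while 3 were higher and 5 lower at an unadjusted p below 0.05 and DESeq2 called 2 lower. Without wild-type replicates 2 and 3 edgeR QL called 2 of the 15.

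Ribosomal and mitochondrial genes did not pass the cutoffs. None of 79 cytoplasmic ribosomal protein genes was called by either tool, although 74 had positive values, with a median of 0.12, and 36 were higher and none lower at an unadjusted p below 0.05. They summed to 38990 to 41131 CPM in Δrbp9 and 33369 to 39814 CPM in wild type, so the ranges overlapped. None of 17 tested genes of the mitochondrial genome was called by either tool, with 3 higher and 7 lower at that p. None of 73 nuclear-encoded genes of oxidative phosphorylation was called by either tool, with 15 higher and 3 lower at that p. In a list of nucleolar genes chosen after values were seen, 7 of 29 were higher (24.1%), none lower by either tool or at an unadjusted p below 0.05, and 27 were positive, with a median of 0.39. Nop56, a core protein of box C/D small nucleolar ribonucleoproteins, had 35.9, 34.1, 33.6, 33.0 and 33.8 CPM in Δrbp9, against 25.1, 25.8, 25.2, 21.1 and 19.7 CPM in wild type (0.54 ± 0.0742, edgeR QL adjusted p = 0.000338). Its partner nop5 (0.69), Polr1E (0.65) and Nopp140 (0.50) were also higher. Nop56 was lost without wild-type replicate 5, and Nopp140 in 5 of 10 fits with 1 library left out. The count of called nucleolar genes was 2 to 4 without Δrbp9 replicate 1 or 2 or wild-type replicate 4 or 5, and 11 without wild-type replicate 3. It was 2 without Δrbp9 replicates 1 and 3 and 2 without wild-type replicates 4 and 5. The small nucleolar RNAs themselves were mostly unchanged in call: 1 of 112 was higher and 4 were lower (4.46%), a count of 3 without Δrbp9 replicate 2, 3 or 5 or wild-type replicate 2 or 4, of 2 without Δrbp9 replicates 1 and 3, and of 8 without wild-type replicates 4 and 5.

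Long noncoding and antisense RNA genes were lower more often than higher. Of 403 tested, 13 were higher and 50 lower (15.6%), and 300 had negative values, with a median of −0.20. The count of 63 fell to 36 without Δrbp9 replicates 1 and 3 and to 26 when only genes averaging above 50 normalized counts were tested. lncRNA:CR45456 averaged 0.124 ± 0.111 CPM in Δrbp9 and 4.63 ± 1.14 CPM in wild type. asRNA:CR45479 averaged 7.75 ± 0.318 CPM in Δrbp9 and 15.98 ± 0.959 CPM in wild type, while asRNA:CR43480 (39.7 ± 3.80 and 16.8 ± 0.620 CPM) and asRNA:CR44179 (8.56 ± 0.748 and 3.44 ± 0.323 CPM) were higher in Δrbp9. The libraries keep strand, but the counting setting for strand was not given in the sources used here, so reads of antisense genes and of their partners cannot be told apart with certainty.

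Muscle genes were called near the 6.62% of all tested genes, 2 of 24 (8.33%), and larval fat body genes above it, 2 of 6 (33.3%). Mhc, the muscle myosin heavy chain, had 5817, 5839, 6069.5, 6309 and 5923 CPM in Δrbp9, against 7991, 7866, 7918, 9677 and 9333 CPM in wild type (−0.51 ± 0.0672, edgeR QL adjusted p = 0.000268), and its call was lost without wild-type replicate 4 or 5. The flight muscle genes Act88F and fln were at 509 and 90.9 CPM in wild-type replicate 4, against at most 190.0 and 40.6 CPM in the other wild-type libraries, and neither was called. TpnC47D, a troponin C gene, went the other way, with 63.9 to 109 CPM in Δrbp9 and 14.2 to 37.1 CPM in wild type (1.73 ± 0.260). No other of 24 muscle genes was called, and 20 of the 24 had negative values. The larval fat body genes Fbp2 (31.8 to 65.7 CPM in Δrbp9, 9.95 to 20.6 CPM in wild type) and Lsp1beta (203 to 309 and 94.6 to 182 CPM) were higher, 2 of 6 tested. The summed larval fat body level was 971 to 1586 CPM in Δrbp9 and 585 to 1266 CPM in wild type. In ΔfneΔrbp9 against Δfne all 6 of these genes were called higher, with a median log2 fold change of 2.89. Their sum was 239 to 350 CPM in Δfne, below the wild-type range, and 2035 to 2413 CPM in ΔfneΔrbp9. None of 8 digestive protease genes was called by edgeR QL although their median was 4.22, since the difference came from Δrbp9 replicates 1 and 3; 6 were higher and none lower at an unadjusted p below 0.05, and DESeq2 called 1 higher. The eggshell gene Cp19 had 4.75 to 6.65 CPM in Δrbp9 and 0.582 to 1.17 CPM in wild type. In a list of tyrosine breakdown enzymes chosen after values were seen, Hpd (−0.85), Tat (−0.64) and hgo (−0.87) were lower and GstZ1 (0.80) was higher, 4 of 6 genes. The count was 1 without Δrbp9 replicates 1 and 3 and 2 without wild-type replicates 2 and 3. hgo overlapped between the groups and was lost in 5 of the 10 fits with 1 library left out (those without Δrbp9 replicate 2, 3, 4 or 5 or wild-type replicate 1).

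A second measure of RBP9 loss came from libraries that this comparison did not use: ΔfneΔrbp9 against Δfne, in flies that lack FNE on both sides. There 688 of 10498 genes outside the interval (6.55%) were called, 352 higher (3.35%) and 336 lower (3.20%). Of the 314 genes higher in Δrbp9 than in wild type, 63 were also higher in ΔfneΔrbp9 than in Δfne (20.1% of the first list and 17.9% of the second) and 21 were lower there. Of the 380 genes lower in Δrbp9, 67 were lower in both (17.6% and 19.9%) and 26 were higher there. A further 481 were not called and 36 not tested there, and 418 of the called genes had the same sign in both comparisons, against 240 with the opposite one. The medians in the second comparison were 0.15 for the higher and −0.13 for the lower genes. Direct comparison of Δrbp9 with Δfne called 853 of 10564 genes (8.07%).

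**Figure D5:**
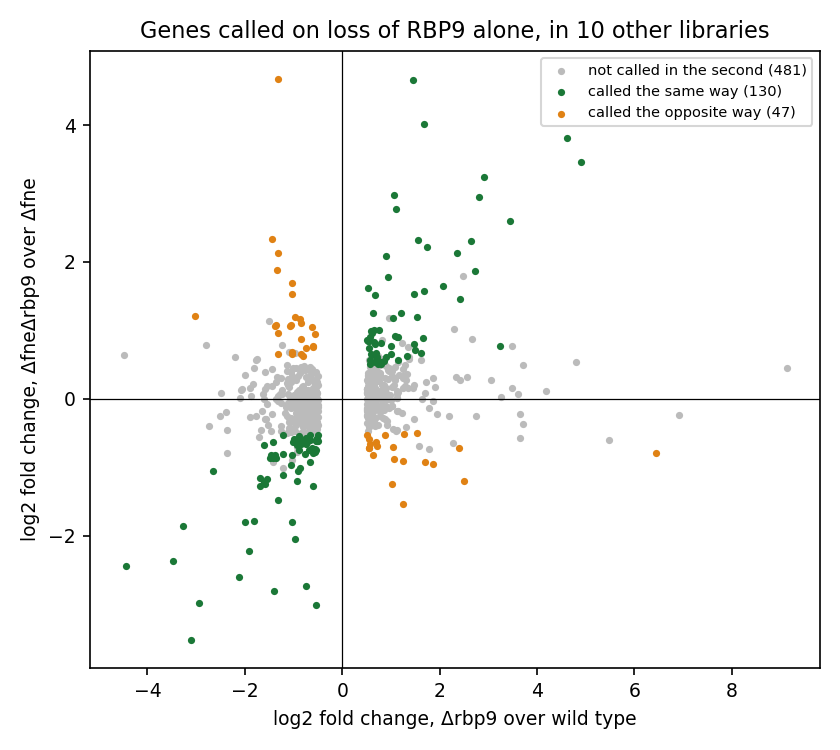
Log2 fold change of Δrbp9 over wild type (horizontal axis) against that of ΔfneΔrbp9 over Δfne (vertical axis) for called genes outside the interval that were tested in both. Green points (130) were called the same way in both, orange points (47) the opposite way, and the 481 grey points, w at the far right among them, were not called in the second comparison.

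The 130 genes that changed alike in both backgrounds came from several functions, and the following were named after their values were seen unless given above. Higher in both were the leucine-rich repeat gene kek2 (150.2 and 88.8 CPM in Δrbp9 and wild type, 174 and 86.9 CPM in ΔfneΔrbp9 and Δfne) and the TOR regulator gene Iml1 (134 and 81.1 CPM, 123 and 86.9 CPM). The glycosidase genes Gal, LManI and LManII were higher in both, by 1.14, 0.68 and 0.71 in the first comparison and 0.90, 1.52 and 0.62 in the second on the log2 scale. CCHa2 (0.59 and 0.66), BomS2 (0.56 and 0.56), BomS5 (1.09 and 0.92), Obp99b (0.89 and 2.09), TpnC47D (1.73 and 2.22) and Fbp2 (1.69 and 4.02) were higher in both as well. Lower in both were Mhc (−0.51 and −0.62), Obp56a (−1.81 and −1.79), Cyp6a13 (−1.06 and −0.97), DIP-theta (−1.03 and −0.83), TwdlG (−1.55 and −1.18), Cpr72Ec (−1.43 and −0.87), Pu (−0.88 and −0.54) and snoRNA:Psi28S-1837a (−1.99 and −1.81). Arc1, whose Gag-like protein forms capsids at synapses, was lower by 0.52 in the first comparison and 0.57 in the second, with 253 and 363 CPM in Δrbp9 and wild type and 184 and 274 CPM in ΔfneΔrbp9 and Δfne. Of the 130 genes, 54 (41.5%) were on the second chromosome, which carries the Rbp9 alleles, 63 (48.5%) on the third and 10 (7.69%) on X, against 37.3%, 43.7% and 15.9% of all tested genes. The second chromosome differs along with RBP9 in both comparisons, and its part was not tested.

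Genes called in opposite directions included 3 of the 29 nucleolar genes and several detoxification genes. Nop56, nop5 and Nop60B were higher in Δrbp9 than in wild type (0.54, 0.69 and 0.54) and lower in ΔfneΔrbp9 than in Δfne (−0.59, −0.64 and −0.72). Nop56 averaged 34.1, 23.4, 34.0 and 22.7 CPM in Δrbp9, wild type, Δfne and ΔfneΔrbp9. In the same order nop5 averaged 38.1, 23.6, 35.1 and 22.7 CPM and Nop60B 38.4, 26.4, 39.6 and 24.1 CPM. Both single mutants thus lay above wild type, and ΔfneΔrbp9 lay near it. Over the 29 nucleolar genes, 6 were lower and none higher in the second comparison, with a median of −0.36 beside 0.39 in the first. Cyp9b2, Cyp6a8 and Hpd were lower in Δrbp9 than in wild type (−0.85, −0.84 and −0.85) and higher in ΔfneΔrbp9 than in Δfne (0.65, 1.11 and 0.87). Tep4, Cyp6a17 and dpr21 were higher in the first (2.39, 6.45 and 1.26) and lower in the second (−0.71, −0.79 and −0.52). Of the 10 highest folds named above, hpRNA:CR33940 and FBgn0028519 were also called higher in the second comparison and Cyp6a17 and CG14715 lower. Of the 10 lowest, CG14118, ppk22 and snoRNA:Psi28S-1837a were called lower there and none was called higher.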

How the data were processed

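Total RNA of fly heads was sequenced from ribosomal RNA-depleted stranded libraries, 5 per genotype. The authors deposited raw counts of reads for each gene, made with STAR and featureCounts (Subread) within snakePipes on dm6 with an Ensembl annotation; tool versions and the strand setting of the counting are not given in the sources used here. A second table, the output of the authors' DESeq2 test between ΔfneΔrbp9 and wild type (base mean, log2 fold change, its error, statistic, p-value and adjusted p), was not used. All 20 count columns matched a sample.

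Counts were tested with edgeR 4.0.16 (limma 3.58.1, R 4.3.3) as two-sided quasi-likelihood F-tests with TMM factors on genes with a mean normalized count above 10, with the 2 cutoffs given above and Benjamini-Hochberg adjustment over all tested genes. DESeq2 1.42.0 was an alternative, as were RLE factors, total count scaling, other filters and cutoffs, a fit of all 4 groups, a replicate block and leaving out each library. The tests were checked on simulated data. The study describes the replicates as independent, each a pool of heads of both sexes, and p-values measure the spread between these pools. All 20 pairs of same-group libraries read differed by more than counting noise. The interval, the members and the gene lists were chosen with earlier results of these data known, and 3 lists (tyrosine breakdown, nucleolar ribosome assembly, pteridine and cofactor synthesis) after the values were seen. Named genes were 8 genes of interest, the 10 highest and 10 lowest folds among called genes with a mean normalized count above 100 and no overlap, up to 4 called members per list by p-value, and 6 genes of the interval. Names and positions came from Ensembl release 115, which matched 17252 of 17558 IDs; unnamed IDs took up to 3.89% of a library's counts and stayed in the tests. No sequences are printed, since no genome sequence was used here.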

Additional observations from a re-analysis of the deposited data

Results flagged for a closer look

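Within a group of 5 libraries, single libraries stood apart from the other 4 by Dixon's ratio in 16 of the 231 groups read for the named genes, where chance gives about 1 in 20. Δrbp9 replicate 4 was the one most often apart: ppk22 was at 8.53 CPM there (group median 2.74), lncRNA:CR44756 at 9.33 (4.49), Lst at 82.4 (34.6), Pu at 1075.5 (764), Cpr73D at 29.1 (21.0) and nop5 at 32.5 CPM (39.4). In Δrbp9 replicate 1, CG18180 was at 23 CPM (10.1) and GstZ1 at 10.1 CPM (7.42). Cyp6a13 was at 13.6 CPM (11.6) in Δrbp9 replicate 5, Obp57a at 18.3 CPM (19.7) in Δrbp9 replicate 3 and lncRNA:CR45456 at 0.319 CPM (0.0723) in Δrbp9 replicate 2. In wild type, CG18180 was at 0.0485 CPM (0.309) and Eip78C at 52.6 CPM (64.4) in replicate 2, Osi2 at 52.2 CPM (62.2) and Mal-A2 at 0.291 CPM (0.495) in replicate 5, and Gr64a at 0.494 CPM (0.148) in replicate 4.

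The effect of RBP9 loss in flies without FNE (ΔfneΔrbp9 over Δfne) was set against that in flies with FNE (Δrbp9 over wild type) by an interaction term in a single edgeR QL fit of all 20 libraries. Of 10538 genes tested, 945 passed the same cutoffs, as did 362 of the 677 genes called in Δrbp9 against wild type outside the interval that were tested, and 63 of the named genes. The 677 called genes and, apart from the genes of interest, the named genes were picked for their change in the same Δrbp9 and wild-type libraries. The number of them that passed is not independent of that choice, so it is no test of whether FNE alters the effect of RBP9 loss. For those genes a smaller effect in the other libraries is a description. For lncRNA:mimi, Fbp2 and Lsp1beta the effect was larger and in the same direction without FNE (−1.98, 4.02 and 2.78) as with FNE (−0.37, 1.69 and 1.11). Values are the effect without FNE minus the effect with FNE, on the log2 scale.

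Among the genes of interest and the largest changes, the difference was negative for lncRNA:mimi (−1.6), w (−8.67), sordd2 (−7.15), Cyp6a17 (−7.23), CG18180 (−6.07), Drsl4 (−3.33), BomBc1 (−3.21), hpRNA:CR33940 (−2.47) and CG14715 (−3.69). It was positive for CG17005 (5.14), dyw (2.35), lncRNA:CR44756 (2.59), CG34291 (2.12), Osi2 (2.22), AstC-R1 (2.07) and Lst (2.06). For genes of neurons, pigment and cell recognition it was as follows: sand (−1.01), pr (0.67), cin (−0.69), Dhpr (−0.58), DIP-epsilon (1.22), dpr21 (−1.77) and beat-VII (0.63). Immune and serpin genes that differed were Tep4 (−3.1), BomT3 (−1.14), BomS1 (−1.08) and Spn47C (1.32). Detoxification genes that differed were Cyp9b2 (1.5), Cyp6d5 (1.11), GstD3 (1.22), GstT4 (0.79), GstE1 (−0.85), GstE3 (0.88), Ugt35B1 (1.56) and Ugt35C1 (1.74). Genes of hormones, cuticle and pigmentation were Jhe (0.89), Hr38 (−1.3), Kr-h1 (0.54), Cpr76Bc (1.17) and y (−1.47). Among chemosensory genes these were Obp19c (1.52), Obp57a (0.6), Obp57b (0.99), Gr64a (−3.12) and Gr64f (−1.31). In metabolism and fat body these were Gpdh1 (−0.53), Agpat3 (−0.6), sug (−0.82), Fbp2 (2.33), Lsp1beta (1.68), Tat (0.64), Hpd (1.73) and hgo (1.25). Nucleolar and noncoding genes that differed, with the small RNA pathway gene tj, were Nop56 (−1.13), Polr1E (−0.97), Nopp140 (−0.85), nop5 (−1.32), snoRNA:Psi28S-2566 (0.83), asRNA:CR43480 (−0.8), asRNA:CR45479 (1.37), asRNA:CR44179 (−1.04), lncRNA:CR45456 (5.36) and tj (−0.79).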

How the results depend on the processing

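Rbp9 stayed between −4.70 and −4.64 on the log2 scale with each library left out in turn. The same fits gave 597 to 753 calls in Δrbp9 against wild type (572 to 727 outside the interval), 657 to 708 in ΔfneΔrbp9 against Δfne and 757 to 900 in Δrbp9 against Δfne. Without a fold cutoff 1685 genes passed (796 higher, 889 lower), 1656 of them outside the interval. Leaving out Δrbp9 replicates 1 and 3, chosen after seeing the data, gave 459 calls outside the interval. The log2 difference of elav changed sign, to 0.02 with total count scaling and to 0.01 without wild-type replicates 4 and 5. Total count scaling moved the median of all genes to 0.041 and the higher share of calls to 51%, against 43.7% with TMM. DESeq2 gave 890 calls and kept 715 of the 723, RLE factors kept 719, no filter on low counts kept 690, and a mean normalized count above 50 kept 530 of them among 8963 tested genes. Same-numbered libraries deviated together only in part (correlations of −0.11 to 0.26 in Δrbp9 against wild type and 0.07 to 0.69 in ΔfneΔrbp9 against Δfne, where 2 of 5 pairs were at or below 0.08), so the numbers were not taken to pair the samples. With the replicate number as a block 589 genes were called in that comparison (564 outside the interval), 561 of the 723 among them, and 723 in ΔfneΔrbp9 against Δfne. For the named genes, 1067 of the results with 1 library left out stayed on the same side of the cutoffs and 82 were no longer called, and 1067, 70 and the 2 elav values were the same, no longer called and changed in sign under the other settings. Intervals of counting error do not bear on calls among replicates, while genes under about 1 CPM rest on few reads and their folds are imprecise.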
